A study of Mus musculus with 18 samples.

Results

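The subunits of the oxidative phosphorylation machinery that are encoded in the nucleus were examined by bulk RNA-seq in the dorsal root ganglia (DRG) of lumbar levels L3–L5. The mice were CD1, an outbred stock. The 3 groups were sham surgery, tibial fracture with vehicle, and tibial fracture with protectin DX (PDX, a lipid mediator made from docosahexaenoic acid). Each group held 6 adult mice, 3 of each sex, and each mouse gave 1 of the 18 libraries. The left tibia was fractured and pinned under isoflurane in both fracture groups, whose ganglia were taken on day 3. The columns of the sham mice are headed Con in the deposited table and were assigned to sham because the other 2 group names are those of the fracture groups, so every sham value rests on that reading. The day of the sham ganglia and the PDX dose of these mice are not given in the sources used here. Genes were taken by symbol: *Nduf* followed by a, b, c, s or v and a number, *Sdha* to *Sdhd*, *Uqcr*, *Cox4* to *Cox8*, and *Atp5*, with a mean of at least 1 FPKM (fragments scaled to exon length and to the mapped fragments of the library) over the 18 libraries. Of 36737 genes, 83 matched by symbol and 81 passed this level. Complex I contributed 35 of them, complex II 4, complex III 8, complex IV 17 and complex V 17. *Ndufa4* is counted in complex IV despite its symbol, since its protein is a subunit of that complex. They lie on 19 chromosomes, 3 of them on chromosome X. Counted by symbol alone, the set holds *Cox6c2*, which is annotated as a processed pseudogene, and *Cox7a2l*, a factor that joins complexes III and IV, and it leaves out *Cyc1* and *Ndufab1*, which carry other names.

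Complexes I and II pass electrons from NADH and succinate to ubiquinone, complex III passes them on to cytochrome c, and complex IV passes them to oxygen. Complexes I, III and IV pump protons across the inner mitochondrial membrane, and complex V, the ATP synthase, uses the gradient to make ATP. Most subunits are encoded in the nucleus, a few core subunits of complexes I, III, IV and V in mitochondrial DNA, and some subunits of complex IV exist as isoforms of heart and skeletal muscle, lung or testis beside the isoform used in most tissues. Large sensory neurons with long axons depend heavily on this supply of ATP.

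Counts per library ranged from 63235040 to 82824942, and the 81 genes took 0.844% to 0.941% of them. The share was 0.869% ± 0.021 in sham, 0.885% ± 0.016 after fracture and 0.883% ± 0.032 after fracture plus PDX (SD, n = 6 mice each). The markers of the tissue were present in every group: none of 15 sensory neuron markers and none of 7 Schwann cell markers was at 0. Skeletal muscle markers varied most between libraries, with a summed level of 19.4 to 1598 CPM (counts scaled to the size of the library), and 5 libraries stood above 500 CPM. In bulk tissue, fewer cells of a type and less RNA per cell cannot be told apart. Labels name 1 mouse per library and no further replication, so p-values describe the spread between these mice.

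Promoter windows were looked up to show what these genes share beyond their names. RefSeq windows of 300 bases, from 250 before to 50 after the gene start, were matched for 66 of the 81 genes. Letters of 4 factors known to act on respiratory genes were searched on both strands. The NRF1 core CGCATGCG reads the same on both strands and was found in 9 of the 66 windows (13.6%), against 2.07% of all 27025 genes with a window. The GABP letters ACCGGAAG were found in 7 (10.6%, against 2.6%), the YY1 letters AAGATGGC in 10 (15.2%, against 3.19%) and the ERR letters AAGGTCA in 8 (12.1%, against 5.38%). In all, 29 of the 66 windows (43.9%) held at least 1 of the 4, against 12.6% of all genes. The YY1 letters also contain a start codon, and 8 of their 10 matches lay 23 to 39 bases after the gene start. One stretch of 150 bases is shown for each of 3 factors, in lower case with the matched letters in capitals, all on the minus strand of GRCm38.p6. *Cox6a1*, the complex IV gene with the highest FPKM, has the NRF1 letters (bases 200 to 51 before the start, chr5:115349009-115349158). *Atp5e*, the epsilon subunit of complex V, has the GABP letters on the opposite strand (bases 150 to 1 before the start, chr2:174464102-174464251). *Atp5g3*, a gene for the c subunit of the ATP synthase ring, has the ERR letters on the opposite strand (bases 150 to 1 before the start, chr2:73911327-73911476).
Cox6a1: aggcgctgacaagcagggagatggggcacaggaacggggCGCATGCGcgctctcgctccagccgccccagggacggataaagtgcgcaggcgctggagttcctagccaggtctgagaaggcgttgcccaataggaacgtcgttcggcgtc
Atp5e: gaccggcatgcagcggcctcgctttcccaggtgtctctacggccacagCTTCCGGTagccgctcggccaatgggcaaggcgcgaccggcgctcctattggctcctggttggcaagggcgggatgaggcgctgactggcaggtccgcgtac
Atp5g3: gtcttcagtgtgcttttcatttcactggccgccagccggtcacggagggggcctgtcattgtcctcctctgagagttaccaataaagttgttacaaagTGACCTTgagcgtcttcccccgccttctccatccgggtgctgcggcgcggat

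Levels spanned more than 2 orders of magnitude, with mean FPKM from 1.13 to 271 and a median of 44.9. A gap separated 76 genes at 5.86 FPKM or more from 5 genes under 2 FPKM, all of complex IV. The 76 genes had at least 522 counts in every library. In complex I the lowest FPKM was that of the accessory subunit *Ndufb2* (5.86). In complex II the highest and lowest were *Sdha*, the flavoprotein that oxidizes succinate (65.5), and the membrane anchor *Sdhc* (21.8). In complex III they were the Rieske iron-sulfur protein *Uqcrfs1* (70.2) and the small subunit *Uqcrq* (33.7). In complex V they were *Atp5a1*, the alpha subunit (258), and the small membrane subunit *Atp5md* (8.31).

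The order of these levels depends on the length that each count is divided by. For the 77 genes with at least 100 counts on average, the length implied by the FPKM column was 1.104 to 1.133 times a union of exons. Library totals were taken as summed gene counts, so a factor shared by all genes cannot be told apart from the total used for FPKM. The union is that of all annotated exons in GENCODE M21, retained introns included. That union was at least 2 times the principal transcript for 26 genes and at least 4 times for 6. Dividing by the principal transcript moved *Atp5l*, the g subunit of complex V, from 9.07 to 107 FPKM and from rank 72 to rank 21, since its union is 6443 bases and its principal transcript 544. On that scale *Atp5b*, the catalytic beta subunit, was highest (569), followed by *Cox6a1* (333) and *Atp5a1* (327). The median member of complex V went from 35.3 to 107 FPKM and that of complex I from 36.2 to 56.1, so the median of complex V was below that of complex I on the first scale and above it on the second. *Atp5l* and *Atp5b* are named here after their values were seen.

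**Figure D1:**
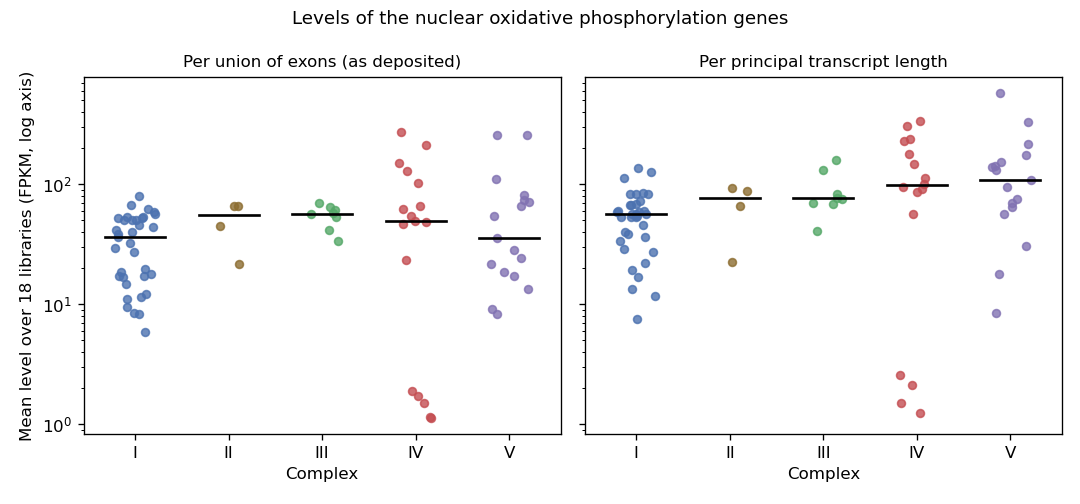
Mean FPKM over 18 libraries (log axis) for the members of complexes I to V, divided by the union of exons as deposited (left) and by the principal transcript (right); each point is a gene and the bar is the median of the complex. The median of complex V moves from 35.3 to 107 FPKM between the panels, and the separate low points of complex IV are tissue isoforms and the pseudogene, which has no principal transcript and is only on the left.

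The first comparison asked how fracture changed these genes in the ganglia, with fracture against sham. Most of their log2 fold changes lay slightly above 0, and no single gene passed the test. edgeR's quasi-likelihood test with Benjamini-Hochberg adjustment over 20659 genes called 0 of the 81, against 2.92% of all genes. At an unadjusted p under 0.05 there were 16 genes (19.8%, against 18.5% of all genes). All 16 were higher, where 8.79% of all genes were higher and 9.69% lower at that level. The log2 fold change was above 0 for 67 of 81 (82.7%, against 50.7% of all genes), and its median was 0.054 against 0.0021. Between libraries of a group, the median of the set had an SD of 0.042 on the log2 CPM scale. Highly expressed genes in general leaned the same way, with 65.2% above 0 and a median of 0.03 in the upper 25% by level. DESeq2 called 2 of the 81, *Ndufa10* (adjusted p = 0.0247) and *Ndufv3* (adjusted p = 0.0375), where it called 8.08% of all genes. Without the library Sham Male 1, whose share of counts was the highest in sham (0.902%), edgeR called 4: *Ndufv1*, *Ndufv3*, *Cox5b* and *Ndufa4*, against 3.39% of all genes in that fit. That fit comes from those that left out 1 mouse at a time. It is named because it called genes, so its calls are not read as support.

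Complex I held 9 of the 16 genes. *Ndufv3* (ENSMUSG00000024038, chromosome 17, 31520115 to 31531331, mm10) encodes an accessory subunit of the arm that oxidizes NADH and had the smallest p of its complex. Its lowest, median and highest levels were 52.9, 53.7 and 61.5 CPM in sham, 58.3, 60.6 and 66.9 after fracture, and 56.3, 61.4 and 63.9 after fracture plus PDX. Fracture and sham overlapped through Sham Male 1 at 61.5 CPM, while the other 5 sham mice lay at or below 57.1 CPM. The PDX group overlapped sham through Sham Female 1 (57.1 CPM) as well, since Fracture+PDX Female 3 was at 56.3 CPM. Fracture against sham gave a log2 fold change of 0.15 (SE 0.047, adjusted p = 0.0936, edgeR), and 0.19 without Sham Male 1, the highest sham mouse. *Ndufv1*, which binds NADH and the flavin, had a log2 fold change of 0.10 and *Ndufa10*, an accessory subunit, of 0.07. Over the complex, 30 of 35 genes had a log2 fold change above 0, with a median of 0.06 and a range of -0.05 to 0.16.

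Complex IV held 4 of the 16, and its median log2 fold change was 0.08. *Cox6a2*, which the fracture libraries brought over the limit of 1 FPKM, is counted in that median and among the genes above 0. *Cox5b* (chromosome 1, 36691449 to 36693681) encodes a zinc-binding subunit on the matrix side. Its levels ran from 77.7 to 87.9 CPM in sham with a median of 80.9, and from 85.2 to 93.8 CPM after fracture with a median of 88.0. Only Sham Male 1 lay within the fracture range. Its log2 fold change was 0.12 (SE 0.038, adjusted p = 0.115, edgeR), and 0.15 without Sham Male 1, the highest sham mouse. *Cox4i1*, the isoform of subunit 4 used in most tissues, ran from 243 to 258 CPM in sham and from 252 to 269.6 CPM after fracture, a log2 fold change of 0.08 (SE 0.026, adjusted p = 0.133, edgeR). *Cox6b1*, which faces the intermembrane space, had the same log2 fold change, 0.08, with medians of 97.8 CPM in sham and 105 CPM after fracture.

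Complexes II, III and V lay closer to 0 at the median than complex I. In complex V, 14 of 17 genes lay above 0 with a median log2 fold change of 0.05, and 3 of them, *Atp5a1*, *Atp5o* and *Atp5d*, were among the 16. *Atp5a1* ran from 844 to 896 CPM in sham and from 884 to 949 CPM after fracture, so the ranges overlapped in a narrow band, with a log2 fold change of 0.07 (SE 0.026, adjusted p = 0.17, edgeR). None of the 4 genes of complex II and none of the 8 of complex III reached an unadjusted p under 0.05, and their medians were 0.03 and 0.05. The smallest p values there were those of *Sdhb*, the iron-sulfur subunit of complex II, at a log2 fold change of 0.08 (adjusted p = 0.294), and of *Uqcr10*, a small subunit of complex III, at 0.10 (adjusted p = 0.283). No gene of the 81 had a fracture group that lay wholly above or below sham, where 1.1% of all genes lay wholly above and 1.47% wholly below. Of the 16 genes, 14 had a promoter window and 4 of these held 1 of the 4 searched motifs.

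**Figure D2:**
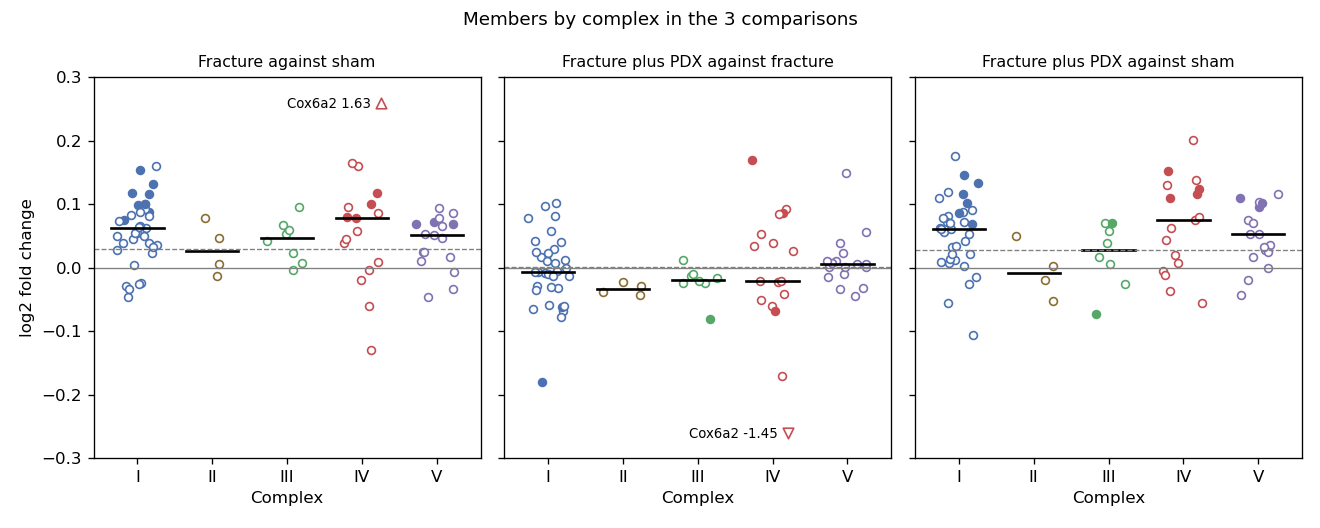
log2 fold change of each of the 81 genes by complex in the 3 comparisons; filled points have an unadjusted p under 0.05, bars are medians of a complex, the dashed line is the median of the upper 25% of all genes by level, and triangles mark a gene beyond the axis with its value. In fracture against sham, 67 of 81 points lie above 0, in fracture plus PDX against fracture 36, and in fracture plus PDX against sham 66.

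Markers of other cells moved in the same comparison. Of the 15 sensory neuron markers 5 were called higher and 14 lay above 0, with a median log2 fold change of 0.12. Their summed level ran from 22940 to 24780 CPM in sham and from 25190 to 26910 CPM after fracture, without overlap. Of the macrophage markers 0 of 7 lay above 0 and 2 were called lower, and 2 of 6 endothelial markers and 1 of 5 fibroblast markers were called lower. Placental markers, which come from no tissue of the ganglion, ran from 175 to 556 CPM in sham and from 27.9 to 269.8 CPM after fracture, with 0 of 7 above 0 and 1 called lower. Neutrophil markers had a median log2 fold change of -0.81, with 0 of 9 above 0, 0 called and 1 at an unadjusted p under 0.05, and red blood cell markers one of -0.53, with 0 of 7 above 0, 0 called and 3 at an unadjusted p under 0.05. Muscle markers had a median log2 fold change of 2.04 with 0 of 13 called and 1 at an unadjusted p under 0.05. Of the 5 libraries above 500 CPM of muscle markers, Fracture Male 1, Fracture Male 3, Fracture Female 2 and Sham Female 2 belong to this comparison. Without them the 81 genes had a median of 0.053, with 64 above 0. Among the libraries kept, Fracture Male 2 (288.6 CPM) and Fracture Female 1 (267.4 CPM) still exceeded every sham library (at most 181.5 CPM). The part of the muscle, neuron, macrophage, endothelial, fibroblast, placental, neutrophil and red blood cell markers in the values of these genes was not tested.

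Genes of related pathways are given from lists. In the TCA cycle, which feeds complexes I and II, 11 of 14 genes lay above 0 after fracture, 0 were called and 6 had an unadjusted p under 0.05. Among these was *Cs*, citrate synthase, at a log2 fold change of 0.09 (adjusted p = 0.108). In glycolysis 13 of 16 lay above 0 and 1 was called, *Pfkm*, the muscle type of phosphofructokinase, at 0.14 (adjusted p = 0.0313, edgeR). At an unadjusted p under 0.05 there were 9 glycolysis genes higher and 1 lower. Of the electron carriers, cytochrome c and the enzymes that make ubiquinone, 9 of 13 lay above 0 and 0 were called, with 3 at an unadjusted p under 0.05. Of 44 assembly factors 26 lay above 0, with a median of 0.02, 0 called and 2 at an unadjusted p under 0.05. Of 14 regulators of mitochondrial biogenesis 7 lay above 0, with a median of -0.0012, 0 called and 0 at an unadjusted p under 0.05. *Esrra*, which binds the ERR letters, had a log2 fold change of 0.09 (adjusted p = 0.279). The 13 subunits encoded in mitochondrial DNA had a median of -0.01, with 4 above 0, 0 called and 2 at an unadjusted p under 0.05, *mt-Nd5* (0.12) and *mt-Nd6* (0.18). Cytosolic ribosomal proteins, as another large set of short abundant transcripts, had 8 of 82 above 0, a median of -0.08 and 2 called lower, with 20 lower and 0 higher at an unadjusted p under 0.05.

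The second comparison asked what PDX changed after fracture. edgeR called 0 of the 81 genes, as it called 0% of the 20562 genes tested, and 6 of the 81 (7.4%) had an unadjusted p under 0.05, against 5.41% of all genes. The log2 fold change was above 0 for 36 of 81 (44.4%, against 50% of all genes) and its median was -0.0092. *Cox8a* (chromosome 19, 7215153 to 7217616), a small membrane subunit of complex IV, had the smallest p. Its lowest, median and highest levels were 129, 138 and 144 CPM after fracture and 147, 151 and 171 CPM after fracture plus PDX, against 132, 142 and 154 CPM in sham. Every mouse with PDX lay above every mouse with fracture alone, and the sham range overlapped both. Its log2 fold change was 0.17 (SE 0.036, unadjusted p = 0.000354, adjusted p = 0.811, edgeR), and DESeq2 called it (adjusted p = 0.0303), where it called 0.0635% of all genes. It was the only 1 of the 81 genes (1.23%) whose groups did not overlap, where 0.126% of all genes lay wholly above and 0.141% wholly below.

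*Cox5a*, another matrix-side subunit of complex IV, ran from 122 to 129 CPM after fracture and from 126 to 141 CPM with PDX as well, with a log2 fold change of 0.09 (SE 0.031, adjusted p = 0.887, edgeR). The other 4 genes with an unadjusted p under 0.05 had log2 fold changes below 0, so at that level 2 of 81 lay above 0 and 4 below, against 2.86% and 2.55% of all genes. *Ndufa3*, a small accessory subunit of complex I, had medians of 10.1 CPM after fracture and 8.98 CPM after fracture plus PDX, with a log2 fold change of -0.18 (SE 0.066, adjusted p = 0.887, edgeR). *Uqcrc2*, a core protein of complex III, had medians of 173 and 162 CPM, with 1 PDX mouse at 176 CPM and the other 5 at or below 169 CPM, and a log2 fold change of -0.08 (SE 0.036, adjusted p = 0.912, edgeR). *Cox7a2* had a log2 fold change of -0.07 and *Ndufs1*, a core subunit of complex I, of -0.06. Subunits of complex IV thus had fold changes of either sign, none of them past the adjusted threshold in edgeR. All 4 genes of complex II and 7 of 8 genes of complex III had a log2 fold change below 0, between -0.04 and -0.02 in complex II. No gene of complex II and 1 gene of complex III had an unadjusted p under 0.05.

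None of the 13 subunits from mitochondrial DNA passed the test after PDX. Their log2 fold changes had a median of -0.08 with 0 of 13 above 0, and 9 had an unadjusted p under 0.05. Their summed level ran from 32140 to 37610 CPM after fracture and from 31630 to 34220 CPM after fracture plus PDX. The groups overlapped, and the median member of the nuclear set differed from 0 by less than the spread between libraries (SD within groups 0.042 on the log2 CPM scale). That SD describes single libraries and is not the error of a difference between groups. *mt-Nd1*, with the smallest p, had a log2 fold change of -0.11 (SE 0.036, adjusted p = 0.887, edgeR). In the same comparison 9 of 9 neutrophil markers lay above 0 and at an unadjusted p under 0.05 with 0 called. Their summed level had medians of 180 CPM in sham, 107 CPM after fracture and 215 CPM after fracture plus PDX, and none reached an unadjusted p under 0.05 in fracture plus PDX against sham. Of the macrophage markers 6 of 7 lay above 0, with 0 called and 2 at an unadjusted p under 0.05. Of the muscle markers 0 of 13 lay above 0, with 0 called and 0 at an unadjusted p under 0.05. The part of the neutrophil, macrophage and muscle markers in these values was not tested. Without the libraries above 500 CPM of muscle markers, the nuclear set had a median of 0.0088 and 43 genes above 0.

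The third comparison set fracture plus PDX against sham and shares its libraries with the other comparisons. edgeR called 0 of the 81 against 4.5% of 20574 genes. An unadjusted p under 0.05 was reached by 15 of the 81 (18.5%, against 18% of all genes). Of these, 14 were higher and 1 lower, where 8.97% of all genes were higher and 8.99% lower. The log2 fold change was above 0 for 66 of 81 (81.5%, against 49.6% of all genes), with a median of 0.0532. Leaving out 1 mouse at a time gave medians of 0.0323 to 0.074. In the upper 25% of genes by level 64.4% lay above 0, with a median of 0.0283. *Cox5a* had the smallest p, with medians of 122 CPM in sham and 131 CPM after fracture plus PDX, and a log2 fold change of 0.12 (SE 0.037, adjusted p = 0.0813, edgeR). DESeq2 called 3 genes, *Cox5a* (adjusted p = 0.0329), *Ndufv3* (adjusted p = 0.0349) and *Cox4i1* (adjusted p = 0.0454), where it called 8.59% of all genes. Without Sham Male 1, edgeR called 6: *Ndufv1*, *Ndufv3*, *Cox4i1*, *Cox5a*, *Ndufa4* and *Atp5g3*, against 4.84% of all genes. Without Fracture+PDX Female 3 it called 1, *Cox5a*, against 4.33% of all genes. In 1 fit of all 18 libraries it called 2, *Cox5a* and *Cox4i1*, against 5.09%. The fits without 1 mouse are named because they called genes, so their calls are not read as support. No gene had a PDX group wholly above or below sham, against 1.35% and 1.51% of all genes.

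Of the 3 genes for the c subunit, whose mature proteins are the same, *Atp5g3* was highest in CPM and differed most between these groups. It ran from 158 to 178 CPM in sham and from 171 to 190.1 CPM after fracture plus PDX, with a log2 fold change of 0.11 (SE 0.035, adjusted p = 0.104, edgeR). *Atp5g1* was more variable between mice, from 75.2 to 106 CPM in sham and from 87.6 to 112 CPM after fracture plus PDX, with a log2 fold change of 0.10 (SE 0.083, adjusted p = 0.584, edgeR). *Atp5g2* had medians of 53.0 and 52.0 CPM and a log2 fold change of -0.04 (SE 0.051, adjusted p = 0.724, edgeR). *Uqcrc2* was the 1 gene below 0 at an unadjusted p under 0.05, at -0.07 (SE 0.032, adjusted p = 0.239, edgeR). *Sdhd*, a membrane anchor of complex II, had the smallest p of that complex at -0.05 (adjusted p = 0.431). Of the sensory neuron markers 14 of 15 lay above 0 in this comparison and 3 were called higher, and *Cs* was called at 0.12 (adjusted p = 0.0137, edgeR). *mt-Nd2*, a subunit of complex I from mitochondrial DNA, was called lower at -0.15 (adjusted p = 0.0381, edgeR). It was the 1 called of the 13 subunits from mitochondrial DNA, of which 2 lay above 0 and 7 were lower at an unadjusted p under 0.05, with a median of -0.09. Also called lower were 5 of 7 placental, 2 of 6 endothelial and 1 of 7 macrophage markers and 3 of 82 ribosomal proteins, and 1 of 5 satellite glia markers was called higher. The part of the marker lists in the values of the 81 genes was not tested here either.

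**Figure D3:**
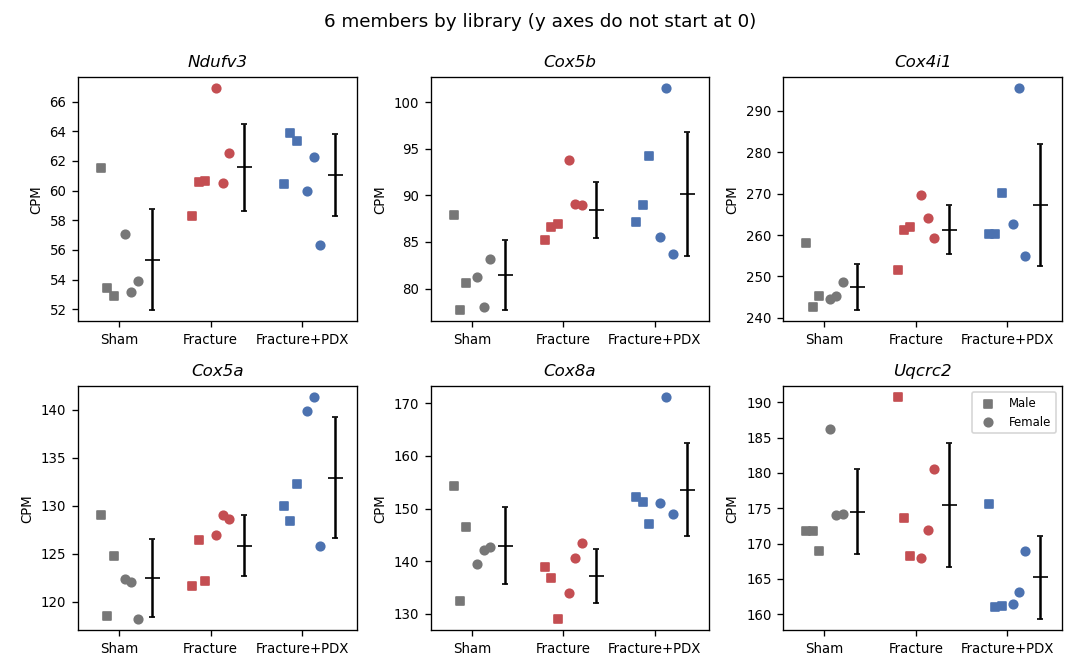
CPM of 6 members in each library by group (squares males, circles females), with the mean and SD of the 6 mice beside the points in black; the y axes do not start at 0. *Cox8a* after PDX lies above fracture alone in all 6 mice, and the highest sham mouse for *Ndufv3*, *Cox5b*, *Cox4i1*, *Cox5a* and *Cox8a* is Sham Male 1.

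Libraries differed in the set as a whole. For each library the deviation of each gene from its own mean over the 18 libraries was taken on the log2 CPM scale, with no test. In sham the median deviation lay between -0.09 and 0.04, and 5 of the 6 libraries were below 0, Sham Male 1 being the exception with 58 of 81 genes above their mean. After fracture it lay between -0.0026 and 0.06, with 39 to 68 genes above their mean. After fracture plus PDX it spread from -0.03 in Female 3, with 16 genes above their mean, to 0.11 in Female 2, with 72. In Fracture+PDX Female 2 the medians of complexes I, III, IV and V were 0.11, 0.13, 0.16 and 0.11, and that of complex II was 0.0021. Complex II thus stayed near its mean in the library where the other complexes were highest.

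**Figure D4:**
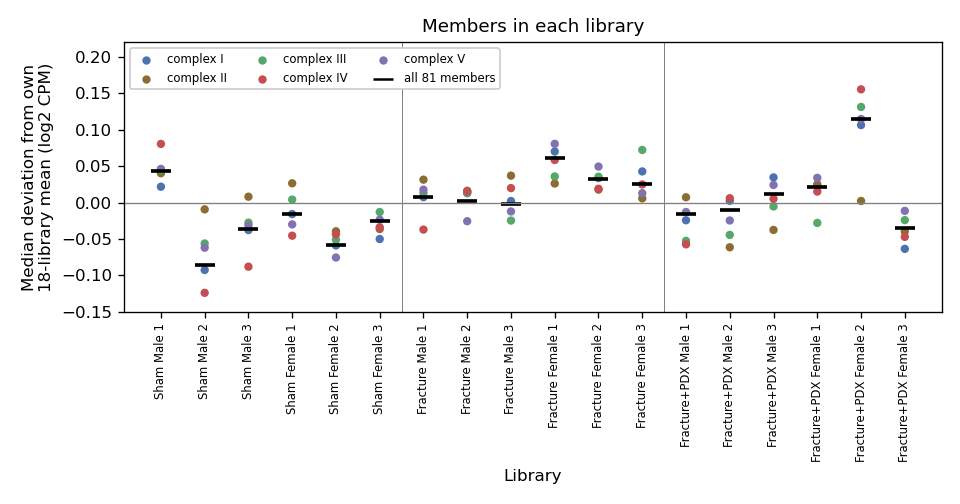
Median deviation of the 81 genes (black bars) and of each complex (coloured points) from their own mean over 18 libraries on the log2 CPM scale, 1 column per library. Sham libraries lie at or below -0.0159 apart from Sham Male 1 at 0.0438, and Fracture+PDX Female 2 is highest at 0.115.

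Sexes were compared over the 18 libraries with group in the model. edgeR called 0 of the 81, against 0.297% of 20527 genes, and 4 (4.9%) reached an unadjusted p under 0.05, against 10.4% of all genes. These 4 had log2 fold changes of female against male above 0, where 5% of all genes were higher and 5.36% lower. The log2 fold change of female against male was above 0 for 64 of 81 (79%, against 50.5% of all genes), with a median of 0.03. Of the macrophage markers 7 of 7 lay above 0 and of the muscle markers 13 of 13. Of the sensory neuron markers 4 of 15 did and of the neutrophil markers 2 of 9, with 0 called in each list. The part of these markers was not tested. In the upper 25% of genes by level 41% lay above 0, with a median of -0.0103. The 3 genes on chromosome X were *Ndufa1*, *Ndufb11* and *Cox7b*. *Ndufb11*, an accessory subunit of complex I, was highest of these in its difference, at 0.10 (SE 0.029, adjusted p = 0.168, edgeR). *Ndufa1*, needed to assemble the membrane arm of complex I, had 0.05 (adjusted p = 0.832), and *Cox7b*, a small subunit of complex IV, 0.07 (adjusted p = 0.732). For *Cox7b*, Fracture Female 3 stood apart at 83.2 CPM, where the other fracture mice lay between 59.3 and 64.2 CPM. The difference between the sexes in the effect of fracture was tested as an interaction, which called 0 of the 81 and 0% of all genes. At an unadjusted p under 0.05 there were 3 of the 81 (3.7%), against 7.2% of all genes. *Cox6a2* was among these 3 and is not read, since the fracture libraries brought it over the limit of 1 FPKM. In females alone the median log2 fold change of fracture against sham was 0.0738 with 68 genes above 0, and in males alone 0.0315 with 51. In the interaction 7 of 7 Schwann cell markers and 69 of 82 ribosomal proteins lay above 0, and 0 of 13 muscle markers, with 0 called in each list. Their part in these values was not tested. The interaction of sex with PDX called 0 of the 81, against 0.00486% of all genes, and 2 reached an unadjusted p under 0.05, against 4.14% of all genes. DESeq2 called 0 of the 81 in each of these 3 tests, against 1.95%, 0.287% and 0.0414% of all genes.

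Isoforms of other tissues were low beside the isoform used in most tissues. *Cox4i2*, *Cox6b2* and *Cox7a1* were detected in every library, with at least 50, 49 and 48 counts. Just above the limit of 1 FPKM stood *Cox6b2*, the testis isoform (1.13), *Cox4i2*, known from lung (1.16), and *Cox6a2*, of heart and skeletal muscle (1.51). Just below it stood *Cox8b*, of heart and skeletal muscle (0.607), and *Cox7b2*, of testis (0.126). *Cox4i2* ran from 0.704 to 1.51 CPM over all libraries, where *Cox4i1* ran from 243 to 295 CPM. *Cox7a1*, of heart and skeletal muscle, ran from 0.624 to 1.70 CPM, where *Cox7a2* ran from 64.2 to 72.8 CPM. *Cox6a2* ran from 0.0771 to 4.53 CPM and *Cox8b* from 0 to 0.708 CPM.

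The log2 ratio of each rarer isoform to its partner, with 0.1 CPM added to both, was compared between groups for 5 pairs and 3 comparisons. The 15 two-sided exact permutation tests of 6 against 6 mice can reach a p of 0.00216. Leaving *Cox6a2* aside, none of them gave a p under 0.05. *Cox6a2* had a mean of 0.965 FPKM in sham, 2.56 FPKM after fracture and 1.003 FPKM after fracture plus PDX, so the fracture libraries brought it over the limit of 1 FPKM. Its 3 tests are therefore not read, and its values are given as a description. The log2 ratio of *Cox6a2* to *Cox6a1* was -8.32 ± 1.20 in sham, -7.07 ± 1.26 after fracture and -8.79 ± 1.62 after fracture plus PDX (SD, n = 6). *Cox6a2* levels are set beside the muscle markers of the same libraries. In the 6 libraries with the highest summed muscle markers it ran from 1.05 to 4.53 CPM and in the 6 with the lowest from 0.0771 to 0.427 CPM. Of the 6 libraries highest in *Cox6a2*, 5 were among the 6 highest in muscle markers, and the same was true of 5 for *Cox8b*. For *Cox7a1* and *Cox4i2* it was 2 of 6. The interaction of sex with fracture for *Cox6a2* was -3.38 on the log2 scale (SE 1.05), beside a median of -3.78 for the muscle markers. Over the other 80 genes, the log2 fold changes of the 3 group comparisons lay between -0.18 and 0.18.

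**Figure D5:**
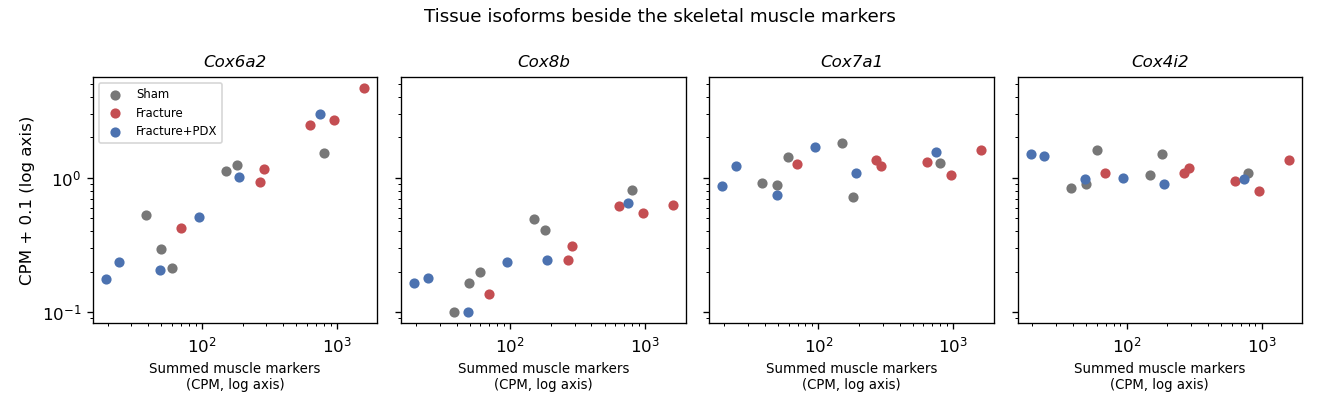
CPM plus 0.1 of 4 tissue isoforms against the summed CPM of 13 skeletal muscle markers in the same library (both log axes), with 1 point per library coloured by group. *Cox6a2* and *Cox8b* lie higher in the libraries with more muscle marker, and *Cox7a1* and *Cox4i2* stay between 0.624 and 1.70 CPM throughout.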

How the data were processed

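Bulk RNA-seq libraries of L3–L5 DRG were poly(A)-selected, stranded and paired-end. The authors deposited raw counts per gene and FPKM values for 36737 genes, with cutadapt 1.10, FastQC, HISAT2, StringTie and mm10 named in the submitters' processing notes and no roles given there. The deposited FPKM are normalized to length and library, and were used for the levels and in alternatives. Symbols and coordinates come from the files.

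Counts were tested in R 4.3.3 with edgeR 4.0.16 (filterByExpr with a minimum count of 10 and a minimum total of 15, TMM scaling, robust quasi-likelihood fits). Each comparison of groups used its 12 libraries with sex as a covariate, and the sexes were compared over 18 with group as a covariate. Calls were made under 0.05 after Benjamini-Hochberg adjustment over all genes tested, and shares called by DESeq2 are over the genes to which it gave an adjusted p. All 81 genes passed the filter in each fit. CPM are scaled by TMM, and log2 CPM use a prior count of 2. Alternatives used DESeq2 1.42.0 and limma 3.58.1, and the fits were tested on simulated data. Transcript lengths are from GENCODE M21, whose gene start and end matched the files for 69 of the 81. Promoters are RefSeq windows. Reads of a processed pseudogene and its parent gene can be hard to tell apart, so *Cox6c2* is uncertain.

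The genes and lists were chosen with earlier results of these data known. Named are, for each complex, the highest and lowest mean FPKM and the smallest p per comparison, plus isoform pairs, c subunit genes, genes on chromosome X, those next to the limit of 1 FPKM, and up to 4 genes of a pathway list by p. *Ndufa10*, *Ndufv1*, *Ndufa4*, *Ndufs1*, *Atp5d*, *Atp5e* and *Atp5o* were added after their values were seen. One gene that the rule names is not reported here. Depth, 63235040 to 82824942 counts, gave 76 of the genes 522 or more counts in each library.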

Additional observations from a re-analysis of the deposited data

Results flagged for a closer look

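Within groups of 6 mice, 108 sets of values were screened for a single library apart from the rest, by Dixon's ratio of gap to range, and 4 stood apart. Chance alone gives about 1 in 20. *Uqcr10* was at 41.4 CPM in Fracture+PDX Female 2, where the other 5 mice lay between 34.6 and 36.3 CPM. *Cox8a* was at 171 CPM in the same library, where the others lay between 147 and 152 CPM. *Cox7b* was at 83.2 CPM in Fracture Female 3, where the others lay between 59.3 and 64.2 CPM. *Uqcrc2* was at 186 CPM in Sham Female 1, where the others lay between 169 and 174 CPM. The causes were not tested.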

How the results depend on the processing

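DESeq2 called 2, 1 and 3 of the 81 genes in fracture against sham, fracture plus PDX against fracture, and fracture plus PDX against sham, where edgeR called 0 in each, and the fit of all 18 libraries called 2 in the third. Leaving out 1 mouse at a time gave 0 to 4, 0 to 0 and 0 to 6 called genes and medians of 0.043 to 0.0727, -0.0266 to 0.0118 and 0.0323 to 0.074, so the median of the second comparison had no stable sign. Upper-quartile scaling, other filters, no sex term, FPKM in limma, other level limits, 1 sex alone and, chosen after seeing the data, the loss of libraries rich in muscle markers called 0. Of 17 named fold changes with an unadjusted p under 0.05, none reversed over 408 alternative values and 14 of these passed the threshold. Mice of the same sex and number in different groups shared only a number: 7 of 18 pairs had a correlation of deviations above 0.1 (range -0.115 to 0.27). With them as a replicate block, edgeR again called 0, 0 and 0, against 0.571%, 0% and 2.36% of all genes, with 13, 5 and 9 genes at an unadjusted p under 0.05, against 16.7%, 5.32% and 16.6% of all genes. Leaving *Cox6a2* aside, whose tests are not read, no isoform ratio passed the threshold under any alternative. Without 1 mouse, the log2 ratio changed sign for *Cox4i2* in fracture plus PDX against fracture (-0.0655 to 0.0976), for *Cox7a1* in that comparison (-0.199 to 0.0331) and against sham (-0.0779 to 0.209), and for *Cox6b2* in fracture against sham (-0.154 to 0.0988), fracture plus PDX against fracture (-0.0169 to 0.292) and against sham (-0.0282 to 0.247). The causes were not tested.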

Other observations

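Between the sexes, no subunit encoded in mitochondrial DNA passed the test, and their difference from the nuclear set was not tested. Of the 13 mitochondrial genes 1 had a log2 fold change of female against male above 0, the median was -0.08, and 8 had an unadjusted p under 0.05, all lower, with 0 called by edgeR. *mt-Nd5*, a core subunit of complex I, was at -0.15 (SE 0.035, adjusted p = 0.0678, edgeR), and *mt-Co1*, the catalytic subunit of complex IV, at -0.13 (SE 0.03, adjusted p = 0.0724, edgeR). Of 44 assembly factors 26 lay above 0 and 9 had an unadjusted p under 0.05, all higher, with 0 called. No explanation was tested.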
